A study of Mus musculus with 10 samples.

Results

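The collagen genes of 3 hindlimb and trunk muscles of wild-type mice were described class by class. All protein-coding genes of the count tables whose symbol in the GRCm38 annotation is Col, a number, a and a number were taken, which gave 42 of the 16112 genes measured. By the type of collagen they encode, 11 are fibrillar, 6 are basement membrane, 8 are FACIT (fibril-associated collagens with interrupted triple helices), and 17 are other collagens. Col9a3, Col21a1, and Col6a4 are not among the genes of these tables and were not analysed here.

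RNA was measured in 3 libraries of EDL (extensor digitorum longus, a fast muscle of the lower leg), 3 of psoas (a fast muscle that flexes the hip), and 4 of soleus (a muscle of the calf that holds many slow fibers). All animals carried 2 wild-type alleles in the B6C3Fe a/a-Ttnmdm/J line, whose colony also segregates the mdm mutation of titin. The mice had been part of another study and were killed under isoflurane. The EDL mice were 42, 54, and 44 days old in the order of their replicate numbers, the psoas mice 42, 54, and 44 days, and the soleus mice 42, 44, 32, and 44 days. Among the 7 animal codes, 3 are shared by a pair of libraries (psoas 1 with soleus 1, EDL 3 with soleus 2, and psoas 3 with soleus 4), so that the libraries are not all independent animals. Both sexes are present in each muscle, and the sex of soleus 3 is not given. Each library holds RNA of extracted muscle tissue, in which fewer cells of a type and less RNA per cell cannot be told apart. Whether whole muscles were taken, and how much tendon with them, is not given in the sources used here.

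Collagens are proteins of 3 chains wound into a triple helix, in which glycine returns at regular steps because no larger residue has room at the center of the helix. Fibrillar collagens build the cable-like fibrils of tendon and of the connective tissue around muscle fibers, and FACIT collagens sit on the surface of those fibrils. The type IV chains form the sheet-like network of the basement membrane that wraps each muscle fiber and each capillary. Type VI collagen forms beaded filaments between the basement membrane and the fibrils, and its chains are mutated in inherited muscle diseases. In muscle, most fibrillar collagen is made by fibroblasts, at the ends of the muscle by tendon cells.

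Total counts ranged from 12737971 in soleus 3 to 50431713 in psoas 1. A count of 0, which allows 3 counts, corresponds to at most 0.236 CPM (counts scaled by the library total) in these libraries, a limit that covers counting error only. At a minimum of 1 CPM in 3 libraries, 34 of the 42 collagen genes and 13397 of all genes were retained, and the main test was made without this filter. Acta1, the actin of skeletal muscle, was between 8746 and 25907 normalized CPM in the 10 libraries. Being high in all 3 muscles, it shows skeletal muscle but cannot check which muscle a library came from. The label of soleus was checked with Myh7, and that of psoas against EDL was not checked. Myh7, the slow myosin, was higher in soleus than in EDL by 7.58 ± 0.98 (SE) on the log2 scale (edgeR, Benjamini-Hochberg adjusted p = 5.8e-04). Soleus 3, from the youngest animal and with the lowest depth, stood apart from the other soleus libraries, with the lowest value of the 4 for 34 of the 42 collagen genes (31.4% of all genes), and soleus 2 had the highest for 29 (28.6% of all genes). The main results that rest on soleus are therefore also given without soleus 3. The reads of EDL 1, EDL 2, psoas 1, and psoas 2 had been trimmed for quality by the authors, those of the other libraries had not, so that no soleus library is in the trimmed set. By the authors' report, each EDL sample had a higher RNA integrity number than every psoas and soleus sample. Soleus 3 had the lowest of the soleus samples. RNA integrity entered no fit, and its part in the differences between muscles was not tested.

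The classes differ in the repeat that gives collagen its shape. The choice of genes by symbol did not use this repeat, but the classes follow the known collagen types, and FACIT is named for its interrupted helices. The runs below therefore describe the classes and are no independent support for them. In the coding sequences of the GENCODE M21 transcripts, runs of at least 5 glycine codons in a Gly-X-Y pattern were counted for all 42 genes. The longest run of the 11 fibrillar genes had between 216 and 344 triplets (median 338), in 2 or 3 runs per gene. The 6 type IV genes carried between 425 and 444 triplets in all, broken into 22 to 27 runs, of which the longest had 39 to 66. In the FACIT genes the longest run had 32 to 113 triplets, and in the other collagens 23 to 87. The end of the longest run is shown for the gene with the highest mean FPKM in each class, because this is where the classes differ to the eye. Each stretch is 126 bases of the coding strand, 5′ to 3′ and in frame, with 7 triplets before the break and as many after it, and every glycine codon is in capitals.
Col3a1 (fibrillar, codons 1175 to 1216): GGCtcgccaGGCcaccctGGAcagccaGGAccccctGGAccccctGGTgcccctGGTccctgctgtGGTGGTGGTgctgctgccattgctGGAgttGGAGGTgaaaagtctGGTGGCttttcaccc
Col4a1 (basement membrane, codons 1332 to 1373): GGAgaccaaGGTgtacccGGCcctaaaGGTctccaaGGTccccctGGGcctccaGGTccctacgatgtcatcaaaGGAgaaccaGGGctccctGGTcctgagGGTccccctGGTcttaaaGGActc
Col14a1 (FACIT, codons 1592 to 1633): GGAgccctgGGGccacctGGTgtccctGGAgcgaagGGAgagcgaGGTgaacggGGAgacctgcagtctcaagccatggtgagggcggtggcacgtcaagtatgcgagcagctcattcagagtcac
Col6a1 (other, codons 496 to 537): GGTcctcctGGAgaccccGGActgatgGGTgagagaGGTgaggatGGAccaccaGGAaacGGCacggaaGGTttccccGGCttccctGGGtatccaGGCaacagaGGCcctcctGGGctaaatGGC
In Col3a1 the regular repeat stops for good, at the end of the helix. In Col4a1 and Col6a1 it is interrupted and then taken up again, and in Col14a1 no glycine codon follows within the window.

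Collagen transcripts took a larger share of the RNA in EDL than in psoas, with soleus between and spread widely. Between 0.249% and 0.439% of the counts fell on the 42 genes in the 3 EDL libraries, between 0.0459% and 0.0954% in psoas, and between 0.0415% (soleus 3) and 0.259% (soleus 2) in soleus. Compared per gene length as FPKM (counts per kilobase of exon, scaled to depth), the 42 genes summed to 349 ± 128 (SD, n = 3) in EDL. The sum was 109 ± 31.5 (SD, n = 3) for psoas and 151 ± 76.4 (SD, n = 4) for soleus. Without soleus 3 the soleus sum was 185 ± 44.1 (SD, n = 3). The lowest EDL library, at 254, lay above the highest soleus library, at 234, and above every psoas library. Of the 42 genes, 35 had their highest mean in EDL, 4 in soleus, and 3 in psoas, and 24 had their lowest mean in psoas.

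The makeup of the collagen RNA differed as well as its amount. Fibrillar genes accounted for 68.1% ± 4.79 (SD) of the summed collagen FPKM in EDL, 46.4% ± 1.23 in psoas, and 55.2% ± 5.62 in soleus. Basement membrane genes took the opposite order, with 9.73% ± 1.96 in EDL, 26.5% ± 0.735 in psoas, and 18.4% ± 4.68 in soleus. In FPKM the libraries of the 3 muscles did not overlap in either class, but the fibrillar shares of EDL 2 (62.6%) and soleus 1 (62.4%) all but met. As shares of counts, without gene length, soleus 1 lay above EDL 2 for the fibrillar genes (68.3% and 67.8%), so that EDL and soleus overlapped. The summed FPKM of the basement membrane genes itself was 33.4 ± 11.7 in EDL, 28.9 ± 7.79 in psoas, and 25.8 ± 11.3 in soleus, so their larger share in psoas stood beside a fibrillar sum of 50.5 ± 13.3 there and 241 ± 102 in EDL. FACIT genes had 5.89% ± 0.771 in EDL, 3.26% ± 0.576 in psoas, and 7.92% ± 0.78 in soleus. The other collagens had 16.3% ± 2.59, 23.9% ± 2.19, and 18.5% ± 2.19, in the same order of muscles. Soleus 3 had the lowest fibrillar share of the soleus libraries (48.9%) and the highest basement membrane share (24.9%), close to the psoas libraries. Without it the soleus shares were 57.3% ± 4.58 (SD, n = 3) for the fibrillar and 16.2% ± 2.11 for the basement membrane genes. The shares are descriptions and were not tested.

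**Figure D1:**
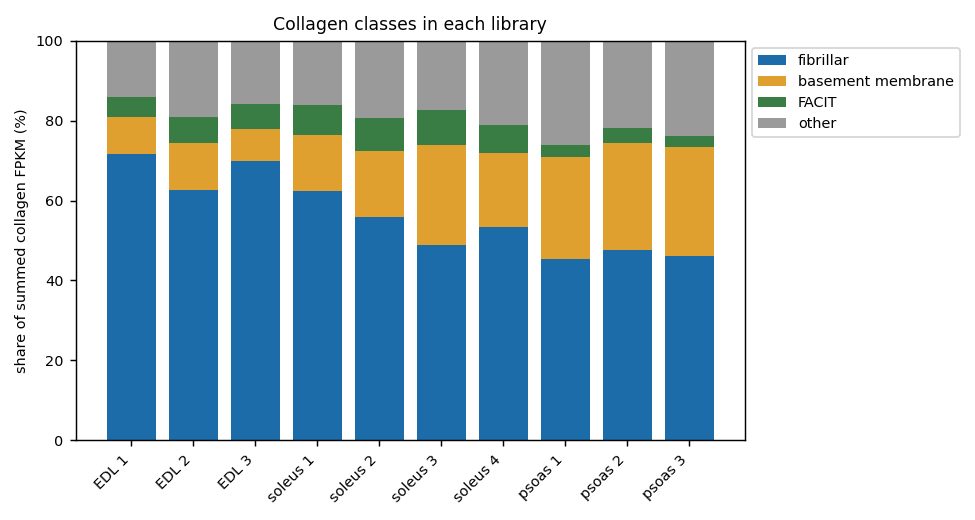
Share of the summed collagen FPKM (vertical axis, percent) taken by fibrillar, basement membrane, FACIT, and other collagen genes in each of the 10 libraries (horizontal axis, grouped by muscle). The basement membrane share is between 7.97% and 11.8% in EDL, between 14% and 24.9% in soleus, and between 25.7% and 27.1% in psoas.

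The question of which collagen genes differ between muscles was asked in 1 fit over all genes, and a gene was called where it differed more than 2-fold with an adjusted p below 0.01 (quasi-likelihood test of edgeR, adjusted over all genes by Benjamini-Hochberg). In psoas against EDL, 6 of the 42 collagen genes were called lower in psoas, against 1.57% of all genes. These are Col11a1 and Col11a2 (fibrillar), Col12a1 and Col14a1 (FACIT), and Col8a1 and Col8a2 (other). By edgeR 0 collagen genes were called higher in psoas (0.540% of all genes), 0 had a positive change at an unadjusted p under 0.05 (2193 of all 16112 genes), and DESeq2 and limma-voom also called 0 (429 and 171 of all genes). The median log2 fold change was -1.07 for the 42 genes and 0.01 for all genes. In 23 of the 42 the 3 psoas libraries all lay below the 3 EDL libraries, which held for 16.3% of all genes. With DESeq2's Wald test 17 genes were called lower (4.39% of all genes with an adjusted p), and with an adjusted p under 0.05 in edgeR 16 were (5.05% of all genes). With read trimming as a covariate the count was 9 (2.51% of all genes). Without psoas 1, psoas 2, or psoas 3 the count was 0, and without EDL 1 or EDL 2 it was 1 (Col12a1). It was 9 without EDL 3, 3 without soleus 1 or soleus 4, 10 without soleus 2, and 14 without soleus 3 (2.21% of all genes), and these soleus libraries enter only the common estimate of the spread.

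In soleus against EDL, 3 of the 42 genes were called lower in soleus (2.18% of all genes), namely Col6a6, Col9a1, and Col19a1. Col19a1 is in the tables only through its EDL counts, so its call here carries no support. By edgeR 0 were called higher (3.59% of all genes), and the count of positive changes at an unadjusted p under 0.05 and the counts of DESeq2 and limma-voom were also 0. Over all 16112 genes these 3 counts were 2736, 820, and 705. The median log2 fold change of the 42 genes was -0.91, against -0.05 for all genes, and in 11 of them all soleus libraries lay below all EDL libraries (14.3% of all genes). Without soleus 3 the count was 2 (1.56% of all genes), the median was -0.71 (-0.09 for all genes), and 12 genes did not overlap (16.9% of all genes). The count was also 2 without EDL 1, EDL 2, psoas 2, soleus 1, or soleus 4, in each case without Col6a6, whose edgeR adjusted p without soleus 3 was 0.0138, and it was 5 without EDL 3.

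In soleus against psoas, 6 genes were called higher in soleus (2.99% of all genes) and 2 lower (2.71% of all genes). Col8a1, Col8a2, Col11a1, Col12a1, Col22a1, and Col23a1 were higher, and Col9a1 and Col19a1 were lower. The median log2 fold change of the 42 genes was 0.16, against 0.02 for all genes, and in 8 of them all soleus libraries lay above all psoas libraries (13.9% of all genes). Without soleus 3, 8 were called higher (2.69% of all genes) and 2 lower (2.18%), the median was 0.39 (-0.01 for all genes), and 17 genes lay above psoas without overlap (17.8% of all genes). The 6 named above remained higher, with log2 fold changes from 1.84 (Col23a1) to 4.68 (Col11a1) and edgeR adjusted p from 3.0e-04 (Col11a1) to 0.00397 (Col23a1). Without psoas 1, psoas 2, or psoas 3 it was 3, 2, and 4, of which 1, 0, and 2 were higher. Without soleus 2 it was 5, and without soleus 4 it was 4. With read trimming as a covariate 0 of the 6 remained higher in edgeR (1.55% of all genes were called higher), while Col9a1 and Col19a1 remained lower. Both comparisons with psoas share the psoas libraries, so that the 4 genes called in both are not 2 independent observations.

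**Figure D2:**
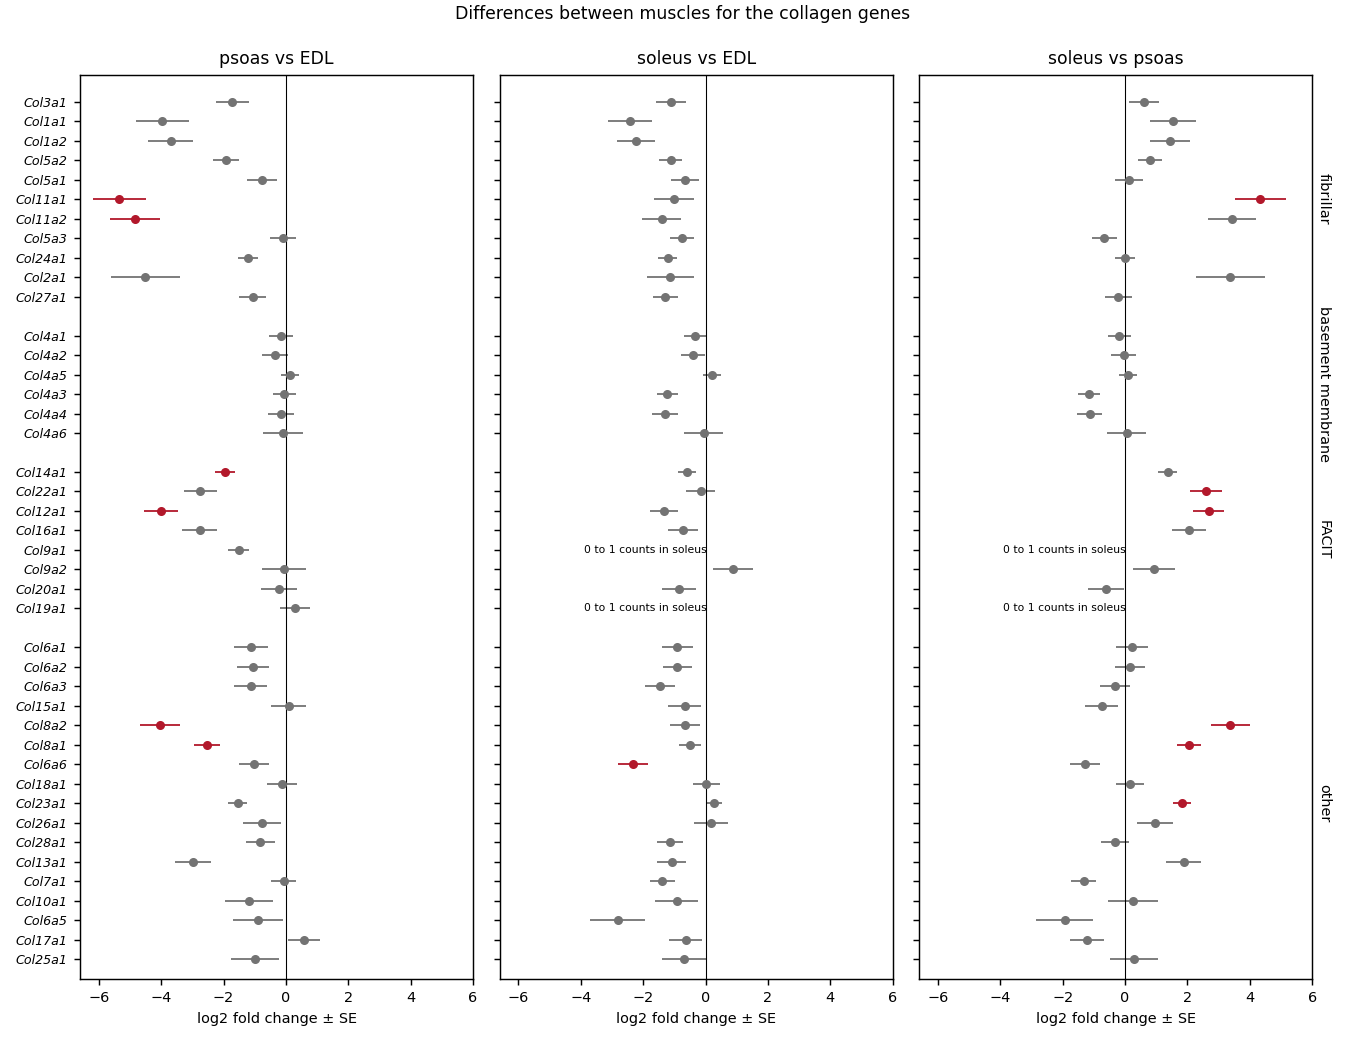
Log2 fold change with its SE (horizontal axis, edgeR) of each collagen gene (vertical axis, by class and mean FPKM) in the 3 comparisons, with called genes in red and the others in grey. The fibrillar genes all lie left of 0 in psoas vs EDL, from -5.34 to -0.09, and the basement membrane genes between -0.36 and 0.12. No point is drawn for Col9a1 and Col19a1 in the comparisons with soleus, where each library has 0 or 1 counts.

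Of the 11 fibrillar genes, 2 were called lower in psoas than in EDL, and all 11 had a negative log2 fold change (median -1.92). Col11a1 and Col11a2, chains of the minor fibrillar type XI that sits inside thin fibrils of cartilage and tendon, had the largest differences. Col11a1 was at 86, 53, and 73.9 normalized CPM in the EDL libraries, 1.16, 1.39, and 2.9 in psoas, and 27, 70.9, 3.51, and 39.2 in soleus. The psoas libraries lay below all others, with soleus 3 the nearest to them. Its log2 fold change was -5.34 ± 0.86 (SE) in psoas against EDL (edgeR adjusted p = 0.0052) and 4.34 ± 0.81 in soleus against psoas (edgeR adjusted p = 0.00458). Col11a2 was at 38.7, 25.3, and 55 normalized CPM in EDL, 1.03, 1.08, and 2.2 in psoas, and 10.3, 34.7, 2.31, and 11.5 in soleus. The psoas libraries were again the lowest 3, and soleus 3 exceeded psoas 3 only slightly. In psoas against EDL its log2 fold change was -4.84 ± 0.81 (edgeR adjusted p = 0.00624), and its difference of 3.43 ± 0.76 between soleus and psoas did not pass (adjusted p = 0.0113).

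Col3a1 had the highest mean FPKM of the collagen genes in each muscle, with 101 ± 57.4 (SD) in EDL, 31.1 ± 11.8 in psoas, and 46.5 ± 21.2 in soleus. Col3a1, the single chain of type III collagen found in the loose tissue around fibers, reached 1665, 752, and 602 normalized CPM in EDL, 424, 197, and 293 in psoas, and 600.2, 615, 152, and 499.5 in soleus. EDL and psoas did not overlap, EDL and soleus did, and its log2 fold change of -1.72 ± 0.52 in psoas against EDL did not pass (edgeR adjusted p = 0.0558). Col1a1, which encodes the main chain of type I collagen, the chief protein of tendon, was at 509, 165, and 442 normalized CPM in EDL, 17, 21.7, and 33 in psoas, and 51, 149, 6.38, and 70.3 in soleus. All EDL libraries lay above all others, and soleus 3 lay below the psoas libraries. Its log2 fold change was -3.96 ± 0.85 in psoas against EDL (edgeR adjusted p = 0.0162) and -2.42 ± 0.72 in soleus against EDL (edgeR adjusted p = 0.0375), and neither passed 0.01. Its partner Col1a2 had -3.69 ± 0.72 (edgeR adjusted p = 0.0117) and -2.23 ± 0.61 (edgeR adjusted p = 0.0282). Both were called in some alternatives, Col1a1 in 6 and Col1a2 in 8 of 22 for psoas against EDL, where adjusted p ranged from 2.7e-04 to 0.0568 and from 6.2e-05 to 0.0436.

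Among the remaining fibrillar genes, Col5a2, a chain of the type V collagen that sets fibril diameter, had a log2 fold change of -1.92 ± 0.41 in psoas against EDL (edgeR adjusted p = 0.0161), whereas Col5a1 had -0.77 ± 0.48 (edgeR adjusted p = 0.318) and Col5a3 -0.09 ± 0.42 (edgeR adjusted p = 0.918). Col5a3 was the fibrillar gene with the smallest change there, with 20.6 ± 4.06 normalized CPM (SD) in EDL and 19.4 ± 1.9 in psoas. Col24a1 was at 9.55 ± 0.744 normalized CPM in EDL, 4.15 ± 0.723 in psoas, and 4.08 ± 1.63 in soleus, and passed in neither comparison with EDL (edgeR adjusted p = 0.0353 and 0.0166). Col2a1, the main collagen of cartilage, had a mean under 1 CPM and ranged from 0 to 2.97 normalized CPM, and Col27a1 from 0.319 to 1.66.

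**Figure D3:**
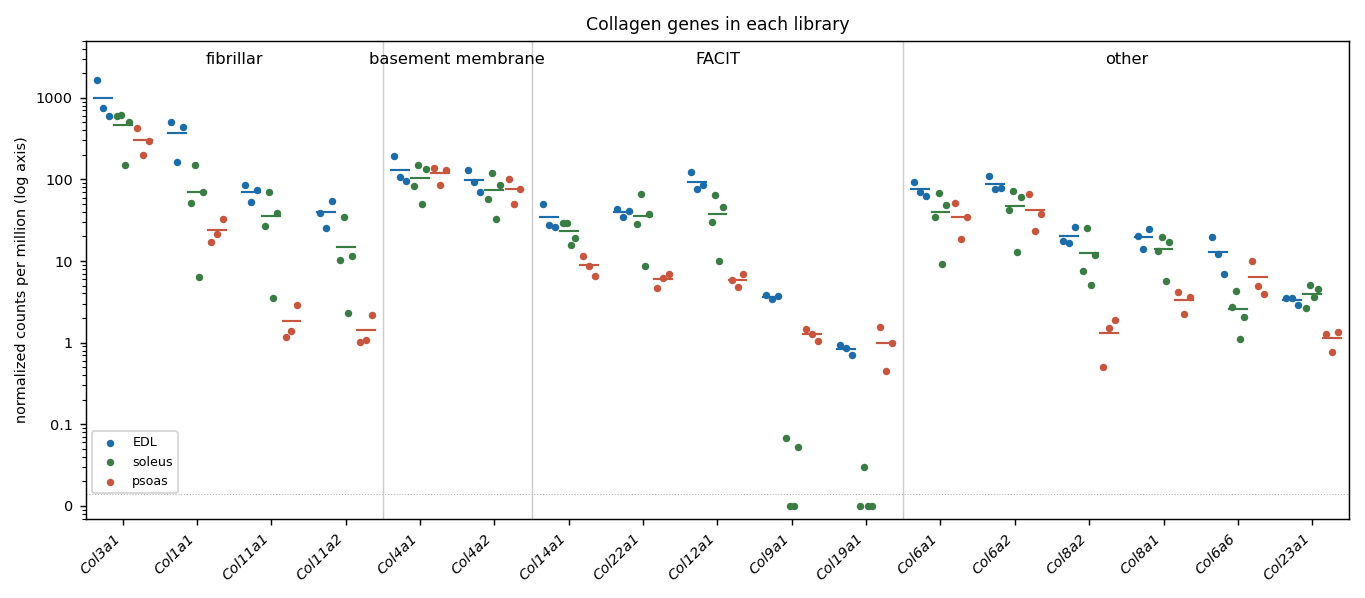
Normalized CPM in each library (points, log axis, with 0 drawn at the foot) and mean per muscle (bars, where no library is at 0) of the collagen genes called in a comparison and of the 2 genes with the highest FPKM in each class. The psoas points of Col11a1 (1.16 to 2.9) and Col12a1 (4.82 to 6.94) sit under all EDL and soleus points, and those of Col4a1 overlap with the other muscles.

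Of the 8 FACIT genes, 2 were called lower in psoas than in EDL, and 2 others were called lower in soleus than in EDL. Col12a1, a FACIT of dense connective tissue and of the muscle surroundings, was at 122, 75.6, and 84.5 normalized CPM in EDL, 5.83, 4.82, and 6.94 in psoas, and 29.8, 63.9, 10, and 45.6 in soleus. The 3 muscles did not overlap at all, with EDL highest and psoas lowest. The log2 fold change was -4.01 ± 0.54 in psoas against EDL (edgeR adjusted p = 0.00276) and 2.68 ± 0.50 in soleus against psoas (edgeR adjusted p = 0.0046), and -1.33 ± 0.44 in soleus against EDL did not pass (adjusted p = 0.0564). Col14a1, its close relative, was at 50.4, 27.9, and 26.2 normalized CPM in EDL, 11.5, 8.75, and 6.59 in psoas, and 28.9, 29.4, 15.6, and 19.2 in soleus. Psoas lay below both other muscles, while EDL and soleus overlapped. In psoas against EDL its log2 fold change was -1.95 ± 0.33 (edgeR adjusted p = 0.00638), and the 1.37 ± 0.31 between soleus and psoas did not pass (adjusted p = 0.0128).

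Col22a1, a FACIT of the myotendinous junction, where fibers attach to tendon, was at 43.5, 34.3, and 40.8 normalized CPM in EDL, 4.62, 6.28, and 7.01 in psoas, and 28.8, 66.5, 8.69, and 37.4 in soleus. All psoas libraries lay below the others, and soleus spread around EDL. It was higher in soleus than in psoas by 2.59 ± 0.52 on the log2 scale (edgeR adjusted p = 0.00673), and in psoas against EDL it had -2.74 ± 0.54 (edgeR adjusted p = 0.0117). Col16a1 had 24.1 ± 5.38 normalized CPM in EDL, 3.49 ± 1.12 in psoas, and 14.4 ± 9.89 in soleus, with a log2 fold change of -2.77 ± 0.56 in psoas against EDL that did not pass (edgeR adjusted p = 0.0134). Col9a2 and Col20a1 had means under 1 CPM and ranged from 0.0797 to 1.2 and from 0.127 to 0.957 normalized CPM.

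Col9a1 and Col19a1 were at or next to 0 in soleus. Col9a1, a chain of the type IX collagen that decorates cartilage fibrils, was at 3.88, 3.39, and 3.73 normalized CPM in EDL and 1.45, 1.27, and 1.06 in psoas, and had counts of 1, 0, 0, and 1 in soleus. Col19a1, a rare FACIT of basement membrane zones, was at 0.934, 0.867, and 0.714 normalized CPM in EDL and 1.56, 0.444, and 0.991 in psoas, and had counts of 0, 1, 0, and 0 in soleus. In both genes all soleus libraries lay below all libraries of the other muscles. For Col19a1 the lowest psoas library, at 0.444, was less than 2 times the limit of 0.236 CPM that a count of 0 allows in soleus 3. The summed counts of Col9a1 were 414 in EDL, 90 in psoas, and 2 in soleus, which gave a ratio of 144 for EDL to soleus (95% exact conditional interval 39.7 to 1195) and of 52.8 for psoas to soleus (14.2 to 443) after normalization of depth. For Col19a1 they were 99, 80, and 1, with ratios of 69 (12.1 to 2752) and 93.8 (16.4 to 3752). The intervals cover counting error only. Both genes were called lower in soleus in both comparisons, Col9a1 with edgeR adjusted p = 3.2e-05 and 1.6e-04 and Col19a1 with 7.4e-04 and 5.3e-04. The calls of Col9a1 were made in all 22 alternatives of each comparison. Those of Col19a1 were made in 20 of 21, with the exception of the edgeR fit with a stand-in for the sequencing run made from trimming and age, and its adjusted p over the edgeR, DESeq2, and limma-voom alternatives ranged from 1.7e-05 to 0.03 and from 5.1e-06 to 0.0154. They were kept without soleus 3. The tables hold only genes with at least 10 reads in 3 samples, which neither gene reached through soleus. For Col9a1 either EDL or psoas was enough. Col19a1 had counts of 40, 46, and 13 in EDL but 59, 7, and 14 in psoas, and so did not reach it without EDL. Its level in EDL was thus a condition of being measured, and its call in soleus against EDL carries no support. Between psoas and EDL the 2 genes went apart, with -1.52 ± 0.35 for Col9a1 (edgeR adjusted p = 0.0212) and 0.28 ± 0.48 for Col19a1 (edgeR adjusted p = 0.753).

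The 2 genes are neighbors on chromosome 1 (GRCm38). Col9a1 spans 24177610 to 24252684 on the plus strand and Col19a1 24261890 to 24587472 on the minus strand, tail to tail with 9205 bases between them. The nearest measured protein-coding genes on either side did not share the low level in soleus. Fam135a on the side of Col9a1 was at 40.6 ± 10 normalized CPM in soleus and 26.4 ± 3.56 in EDL (edgeR adjusted p = 0.0751), and Lmbrd1 on the side of Col19a1 was at 25.2 ± 1.59 and 25.1 ± 3.56 (edgeR adjusted p = 0.983). The next gene beyond Fam135a, Sdhaf4, was at 30.4 ± 6.4 normalized CPM in soleus and 10.7 ± 2.8 in EDL (edgeR adjusted p = 0.0116). These 3 genes were taken for their position, after the levels of Col9a1 and Col19a1 had been seen.

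Of the 6 basement membrane genes, 0 were called in any comparison by edgeR, DESeq2, or limma-voom (by edgeR, 1.57% of all genes were called lower in psoas than in EDL), and at an unadjusted p under 0.05 the counts were 0 in psoas against EDL and 2 in each comparison with soleus. Of all 16112 genes, 4679 had such a p in psoas against EDL, 5646 in soleus against EDL, and 4574 in soleus against psoas. The median log2 fold change of the basement membrane genes in psoas against EDL was -0.13, where that of the fibrillar genes, of which 9 of 11 were not called either, was -1.92, and the difference between the classes was not tested. Col4a1, which with Col4a2 forms the common type IV network, was at 192, 108, and 94.4 normalized CPM in EDL, 139, 86.4, and 129.9 in psoas, and 82.1, 150.2, 49.7, and 136 in soleus. Col4a2 was at 129.6, 93.2, and 69.4 in EDL, 101, 50.5, and 76.3 in psoas, and 57.4, 119, 32.9, and 84.4 in soleus. The muscles overlapped fully in both genes, with soleus 3 the lowest library of all. The log2 fold changes in psoas against EDL were -0.15 ± 0.39 and -0.36 ± 0.41 (edgeR adjusted p = 0.84 and 0.613). Col4a5 had 5.91 ± 1.83 normalized CPM in EDL, 6.45 ± 1.24 in psoas, and 6.85 ± 1.81 in soleus, and Col4a6 had a mean under 1 CPM and ranged from 0.113 to 0.389.

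Col4a3 and Col4a4, the chains of the specialized network known from the kidney glomerulus, had their lower values in soleus. Col4a3 was at 3.16 ± 1.18 normalized CPM in EDL, 3.02 ± 1.36 in psoas, and 1.37 ± 0.302 in soleus, and Col4a4 at 2.83 ± 1.04, 2.54 ± 0.568, and 1.15 ± 0.62. In soleus against EDL the log2 fold changes were -1.22 ± 0.35 and -1.29 ± 0.41, with edgeR adjusted p = 0.0348 and 0.0467, which did not pass.

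The type IV genes lie in head-to-head pairs. Col4a1 and Col4a2 on chromosome 8 overlap at their 5′ ends by 22 bases, and Col4a3 and Col4a4 on chromosome 1 start 71 bases apart. The 2 stretches between or across the starts are shown in capitals because each lies at the starts of both gene models of its pair. Whether either stretch acts on both genes was not tested. They were taken from RefSeq promoter sequences of GRCm38.p6, which were at hand for 34 of the 42 genes.
Col4a1 and Col4a2 (chr8:11312805-11312826, plus strand): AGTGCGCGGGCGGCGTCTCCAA
Col4a3 and Col4a4 (chr1:82586850-82586920, minus strand): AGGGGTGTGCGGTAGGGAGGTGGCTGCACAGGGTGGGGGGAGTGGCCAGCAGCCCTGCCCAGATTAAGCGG
In the 3 comparisons (psoas against EDL, soleus against EDL, and soleus against psoas) Col4a4 had log2 fold changes of -0.16, -1.29, and -1.14 and Col4a3 of -0.06, -1.22, and -1.16. Col4a1 had -0.15, -0.33, and -0.18 and Col4a2 -0.36, -0.41, and -0.05. The third pair, Col4a5 and Col4a6 on chromosome X, lies 1308 bases apart and differed in level, with the FPKM of Col4a6 between 0.0155 and 0.0674 times that of Col4a5 across the libraries. Col4a6 had log2 fold changes of -0.10, -0.06, and 0.05 in the 3 comparisons and Col4a5 of 0.12, 0.21, and 0.09. In these pairs 0 of the 6 genes was called, and the difference within a pair was not tested. Other neighbors lie in other arrangements. Col3a1 and Col5a2, tail to tail on chromosome 1 with 24614 bases between them, had -1.72 and -1.92 in psoas against EDL and -1.11 and -1.12 in soleus against EDL, and Col6a2 and Col6a1, in tandem on chromosome 10, had -1.06 and -1.11, and -0.90 and -0.91. In psoas against EDL the tail-to-tail pair of Col9a1 and Col19a1 had -1.52 and 0.28. None of these 6 changes in psoas against EDL was called. The strand setting of the counting is not given in the sources used here, so reads from the 22 bases that Col4a1 and Col4a2 share cannot be told apart. The same holds where Col10a1 overlaps Nt5dc1 and Col18a1 overlaps Slc19a1 on the opposite strand, and Col5a2, Col20a1, and Col25a1 overlap other gene models on their own strand.

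Of the 17 other collagens, 2 were called lower in psoas than in EDL, and both are chains of type VIII, a short-chain network collagen of vessel walls and of the cornea. Col8a2 was at 17.6, 16.4, and 26.2 normalized CPM in EDL, 0.501, 1.52, and 1.91 in psoas, and 7.46, 25.7, 5.02, and 11.9 in soleus. Col8a1 was at 20.2, 14, and 24.9 in EDL, 4.17, 2.22, and 3.61 in psoas, and 13.1, 19.7, 5.74, and 17 in soleus. Psoas lay below both other muscles in both genes, and EDL and soleus overlapped. The log2 fold changes in psoas against EDL were -4.04 ± 0.64 for Col8a2 (edgeR adjusted p = 0.00497) and -2.54 ± 0.41 for Col8a1 (edgeR adjusted p = 0.00558). In soleus against psoas they were 3.38 ± 0.62 and 2.05 ± 0.39 (edgeR adjusted p = 0.00393 and 0.00531).

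Type VI collagen was among the most abundant of this class, and its chains differed in how they varied. Col6a1 was at 93, 69.6, and 63.4 normalized CPM in EDL, 50.7, 18.7, and 35 in psoas, and 35, 67.2, 9.09, and 49.1 in soleus. Col6a2 was at 110.3, 77.3, and 78.9 in EDL, 66.3, 23.5, and 37.3 in psoas, and 42.7, 72.5, 12.9, and 61.3 in soleus. EDL lay above psoas in both, and the changes in psoas against EDL did not pass (edgeR adjusted p = 0.203 and 0.197). Col6a6, a long chain that can take the place of the third one, was at 19.8, 12.3, and 6.87 normalized CPM in EDL, 9.97, 4.95, and 3.97 in psoas, and 2.74, 4.28, 1.12, and 2.06 in soleus. All soleus libraries lay below all EDL libraries, and soleus 2 and psoas 3 overlapped. In soleus against EDL its log2 fold change was -2.32 ± 0.47 (edgeR adjusted p = 0.00673), a call made in 11 of 22 alternatives (adjusted p from 1.3e-05 to 0.257), and over them the log2 fold change ran from -2.72 to -1.19. Its neighbor in tandem on chromosome 9, Col6a5, had a mean under 1 CPM and ranged from 0 to 2.69.

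Among the transmembrane collagens, which are anchored in the cell membrane, Col23a1 was at 3.5, 3.56, and 2.91 normalized CPM in EDL, 1.27, 0.761, and 1.35 in psoas, and 2.67, 5.08, 3.67, and 4.54 in soleus. The psoas libraries lay below all others, and soleus 3 lay among the other soleus libraries. It was higher in soleus than in psoas by 1.82 ± 0.29 on the log2 scale (edgeR adjusted p = 0.00199), and in psoas against EDL it had -1.55 ± 0.30 (edgeR adjusted p = 0.0116). Col13a1, which is needed at the neuromuscular junction, had 3.23 ± 0.714 normalized CPM in EDL, 0.376 ± 0.233 in psoas, and 1.46 ± 0.966 in soleus, and its log2 fold change of -2.97 ± 0.58 in psoas against EDL did not pass (edgeR adjusted p = 0.0116). Col17a1 and Col25a1 ranged from 0.158 to 0.991 and from 0 to 0.754 normalized CPM, with means under 1 CPM, as had Col10a1 (0.0708 to 0.747). The multiplexins of vessel and fiber basement membranes had -0.13 ± 0.48 (Col18a1) and 0.09 ± 0.56 (Col15a1) in psoas against EDL (edgeR adjusted p = 0.894 and 0.942). Col7a1, the anchoring fibril collagen, was at 0.803 ± 0.212 normalized CPM in soleus and 2.05 ± 1.03 in EDL (edgeR adjusted p = 0.032). The remaining Col6a3, Col26a1, and Col28a1 had changes between -1.13 and -0.78 in psoas against EDL (edgeR adjusted p = 0.175 to 0.431).

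Ratios between chains of the same or of related types were compared per gene length, with 6 ratios in 3 comparisons giving 18 tests. The ratio of Col1a1 to Col1a2 was 1.28 ± 0.153 (SD) in EDL, 1.09 ± 0.118 in psoas, and 1.03 ± 0.3 in soleus, and that of Col6a1 to Col6a2 was 1.61 ± 0.093, 1.58 ± 0.175, and 1.54 ± 0.174. Col4a1 to Col4a2 was 1.18 ± 0.143, 1.42 ± 0.168, and 1.29 ± 0.131. These 3 ratios overlapped between all muscles. The ratio of Col11a1 to Col5a1, whose chains can share a triple helix, was 1 ± 0.185 in EDL and 0.659 ± 0.345 in soleus, and 0.047 ± 0.0232 in psoas, where no library reached the other muscles. The ratio of Col5a1 to Col5a2 was 0.298 ± 0.0723 in EDL and 0.63 ± 0.219 in psoas, where the nearest libraries, at 0.38 and 0.382, all but met. Col6a3 to Col6a1 was 0.46 ± 0.0752 in soleus and 0.633 ± 0.11 in EDL, likewise without overlap, and 0.683 ± 0.173 in psoas. Without soleus 3 the soleus ratios were 1.18 ± 0.11 (SD, n = 3) for Col1a1 to Col1a2, 0.79 ± 0.276 for Col11a1 to Col5a1, and 0.45 ± 0.0885 for Col6a3 to Col6a1. An exact two-sided permutation test cannot go below 0.1 with 3 against 3 libraries or 0.0571 with 4 against 3, and 4 of the 18 tests reached that limit, with a Benjamini-Hochberg adjusted p of 0.4 each.

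**Figure D4:**
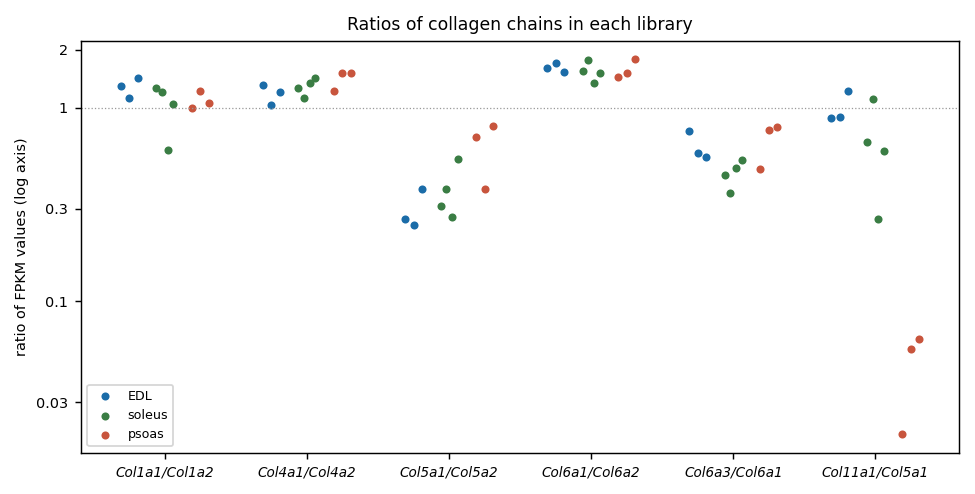
Ratio of the FPKM values of 2 collagen chains in each library (points, log axis) for 6 pairs of chains, by muscle. Col11a1/Col5a1 lies between 0.0205 and 0.064 in psoas and at 0.266 or above in EDL and soleus, whereas Col6a1/Col6a2 stays between 1.34 and 1.78 in all libraries.

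The genes that modify, fold, and cross-link collagen were in part lower in psoas as well. Of 34 measured genes for collagen synthesis and processing, 8 were called lower in psoas than in EDL (1.57% of all genes), and 30 had a negative log2 fold change (49.5% of all genes), with a median of -1.16. The called genes with the largest changes were Lox, which starts the cross-linking of fibrils, at -3.45 ± 0.44 (edgeR adjusted p = 0.00178), Pcolce, which enhances the removal of the C-propeptide, at -2.31 ± 0.40 (edgeR adjusted p = 0.00682), and the prolyl 3-hydroxylase P3h2 at -2.27 ± 0.42 (edgeR adjusted p = 0.00937). In soleus against EDL, 4 were called lower (2.18% of all genes) and 1 higher (3.59% of all genes). The lower genes were P4ha1, a prolyl 4-hydroxylase, at -1.43 ± 0.17 (edgeR adjusted p = 3.8e-04), Lox at -1.80 ± 0.36 (edgeR adjusted p = 0.00697), Fkbp14, and Pcolce2. The higher gene was Tmem38b, a channel of the endoplasmic reticulum, at 1.62 ± 0.17 (edgeR adjusted p = 1.4e-04). In soleus against psoas 3 were called higher (2.99% of all genes), P3h2 at 3.92 ± 0.42 (edgeR adjusted p = 2.2e-04), P3h4, and Pcolce2. Of 9 measured collagen receptors, 0 were called by edgeR in any comparison. At an unadjusted p under 0.05 they counted 5, 4, and 1 in psoas against EDL, soleus against EDL, and soleus against psoas, DESeq2 called 2, 1, and 0, and limma-voom called 0 in each. Of all 16112 genes, 4679, 5646, and 4574 had an unadjusted p under 0.05 in edgeR in these comparisons.

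Markers of tendon cells were lower in psoas than in EDL, as were the called fibrillar and FACIT genes. All 8 tendon markers were called lower there (1.57% of all genes), and 6 of 8 were called higher in soleus than in psoas (2.99% of all genes). The authors list Tnmd, Kera, and Cilp2, with Col11a1, Col11a2, and Col1a1, among the genes most tied to an axis of variation. Along it EDL and psoas lie apart in these same libraries, so the marker counts do not stand independently of that result. In soleus against EDL 0 of the 8 were called by edgeR, DESeq2, or limma-voom, and 6 had an unadjusted p under 0.05 in edgeR (5646 of all 16112 genes). For all 8, the summed level was 692 to 781 normalized CPM in EDL, 30.8 to 82 in psoas, and 226, 456, 87.6, and 257 in soleus 1 to 4. Tnmd, tenomodulin of mature tendon cells, had a log2 fold change of -5.00 ± 0.71 in psoas against EDL (edgeR adjusted p = 0.00302) and ranged from 104 to 145 normalized CPM in EDL and from 1.42 to 5.96 in psoas, with 0 of the 8 markers at a count of 0 in any library. Scx, the transcription factor of tendon precursors, had -2.53 ± 0.47 (edgeR adjusted p = 0.00941). The order of the soleus libraries in the tendon sum, with soleus 2 highest and soleus 3 lowest, was also that of their fibrillar sum, at 92.9, 131, 24.6, and 92.1 FPKM in soleus 1 to 4, at both ends. Of 6 measured cartilage and bone markers, 3 (Comp, Matn3, and Cnmd) were called lower in psoas than in EDL (1.57% of all genes). The sum of the 6 was 36.7 to 52.6 in EDL, 1.97 to 3.12 in psoas, and 22 to 46.3 in soleus. Most of the sum in EDL and soleus was Comp, a matrix protein of cartilage that tendon also holds, at 29.4 to 41.9 normalized CPM in EDL and 18.4 to 41 in soleus. Sox9, the transcription factor of cartilage cells, had positive changes that did not pass, 1.01 ± 0.54 in psoas against EDL and 1.99 ± 0.51 in soleus against EDL (edgeR adjusted p = 0.239 and 0.021). Cnmd, chondromodulin, was also called lower in soleus than in EDL, at -4.76 ± 0.79 (edgeR adjusted p = 0.00249). Its counts were 47, 57, and 19 in EDL, 3, 0, and 0 in psoas, and 0, 3, 0, and 0 in soleus. The tables hold only genes with at least 10 reads in 3 samples, which Cnmd reached through EDL alone. Matn3, with counts of 3, 2, and 1 in psoas and 9, 83, 0, and 22 in soleus, did not reach it without EDL. The level of both genes in EDL was thus a condition of being measured, and their calls carry no support. The part of tendon and of cartilage-like tissue taken with the muscle in these results was not tested.

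**Figure D5:**
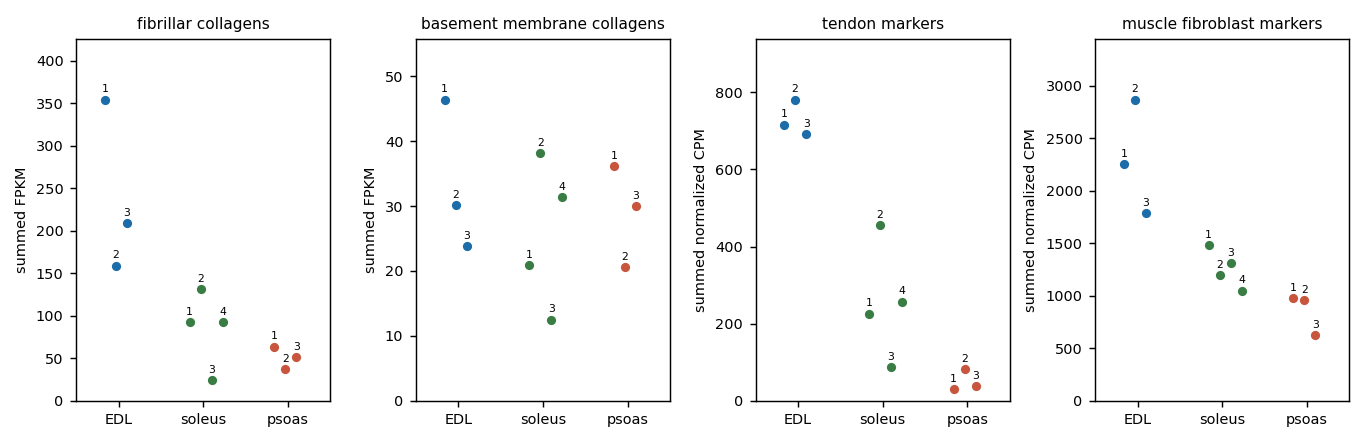
Summed FPKM of the fibrillar and basement membrane collagen genes and summed normalized CPM of 8 tendon and 9 muscle fibroblast markers (vertical axes) in each library (points, numbered by replicate) of the 3 muscles. Fibrillar collagens and tendon markers are highest in EDL and low in psoas and soleus 3, while the basement membrane sum overlaps between the muscles.

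Fibroblast markers had a median log2 fold change of -1.15 in psoas against EDL, where that of the tendon markers was -4.41. Of 9, 3 were called lower in psoas than in EDL (Dcn, Pi16, and Gsn), against 1.57% of all genes. In soleus against EDL 3 were called lower (Dcn, Pdgfra, and Lum), against 2.18% of all genes. The summed levels were 1791 to 2869 normalized CPM in EDL, 629 to 980.5 in psoas, and 1049 to 1480 in soleus, where soleus 3 did not stand apart. Pdgfra, the receptor that marks fibroblasts of muscle, was at 38.3 to 69.5 normalized CPM in EDL and 24.9 to 31.2 in psoas (edgeR adjusted p = 0.0159), and had -1.08 ± 0.20 in soleus against EDL (edgeR adjusted p = 0.00408). Of 7 endothelial markers 1, Egfl7, was called lower in psoas than in EDL (1.57% of all genes), with sums of 150.2 to 265 in EDL, 135 to 144 in psoas, and 165 to 194 in soleus. Pecam1 had -0.57 in psoas against EDL (edgeR adjusted p = 0.154). A negative change was found there for 6 of the 7. Cdh5 went the other way with 0.63 ± 0.25 (edgeR adjusted p = 0.121), and all its psoas libraries lay above all EDL libraries. The sums of the 7 pericyte and smooth muscle markers were 737 to 819.7 in EDL, 574 to 708 in psoas, and 563 to 801 in soleus. Of 5 macrophage markers 1, Mrc1, was called lower in both psoas and soleus than in EDL (1.57% and 2.18% of all genes). The sums of the 5 were 61.3 to 136 in EDL, 27.9 to 52.4 in psoas, and 48.2 to 71.1 in soleus. Of 6 nerve markers Ncam1, and of 6 neuromuscular junction markers Chrna1 and Chrnd, were called higher in soleus than in psoas (2.99% of all genes). For soleus against EDL the junction markers Colq and Musk were called higher (3.59% of all genes) and Chrne lower (2.18% of all genes). The sums of the 6 adipocyte markers were 104 to 221 in EDL, 88.3 to 188 in psoas, and 149.6 to 305 in soleus. Of the 10 skeletal muscle markers, 0 were called in psoas against EDL by edgeR (2 by DESeq2 and 0 by limma-voom). At an unadjusted p under 0.05 in edgeR there were 4 of these markers, and 4679 of all 16112 genes. The level of the 10 skeletal muscle markers was also summed. Their sums were 103307 to 137042 normalized CPM in EDL, 154637 to 183164 in psoas, and 102073 to 117938 in soleus, so that every psoas library lay above every library of the other muscles. The part of these cell types in the collagen differences was not tested.

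Within the animals that gave more than 1 library, the classes kept their order in part. In the animal of soleus 1 and psoas 1, 8 of 11 fibrillar genes were higher in soleus and 1 of 6 basement membrane genes, against 49.4% of all genes. In that of soleus 4 and psoas 3, the counts were 8 of 11 and 2 of 6, against 52.2% of all genes. In that of soleus 2 and EDL 3, 8 of 11 fibrillar genes were lower in soleus, and 4 of 6 basement membrane genes were higher, against 52.1% of all genes higher. Each of these is 1 pair of libraries and carries no test.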

How the data were processed

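RNA of 3 EDL, 3 psoas, and 4 soleus samples was sequenced as stranded total RNA after ribosomal depletion, with read pairs. The authors trimmed 4 libraries of lower quality with Trimmomatic 0.32, aligned with TopHat 2.1.1 to GRCm38, and counted reads per gene with GenomicFeatures and GenomicAlignments, and the deposited values are raw counts of genes with at least 10 reads in 3 samples. How reads with several alignments were counted is not given in the sources used here.

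Symbols, positions, and exon lengths came from GENCODE M21 (16032 genes with a symbol), classes from the known type of each collagen. Counts were fitted with edgeR 4.0.16 (R 4.3.3) in 1 quasi-likelihood model of all 10 libraries, TMM normalized, with the muscle as its term. Normalized CPM are TMM scaled, and FPKM were computed with DESeq2 1.42.0. Alternatives used DESeq2, limma 3.58.1 (voom with the animal as a random effect), other scalings, a filter, and covariates. The sequencing run of each library is not given in the sources used here, and a run proxy stood in for it (trimmed libraries, untrimmed libraries of mice aged 44 days, and the other untrimmed ones). On simulated counts the edgeR, DESeq2, and limma-voom scripts were tested. The libraries were treated as independent, although 3 animal codes are shared and the study states fewer mice than there are codes.

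The collagen genes and all marker lists were chosen with earlier results of these data known. All members are named, with library values for called genes and for the 2 highest in FPKM per class. From other lists, counts and up to 3 called genes with the largest change are named, with Tnmd, Scx, Pdgfra, Pecam1, and Acta1. The next measured genes beside Col9a1 and Col19a1 and the neighboring pairs of collagen genes were added after their values were seen. Tables were made with Python 3.11.15, pandas 2.3.3, and scipy 1.17.1.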

Additional observations from a re-analysis of the deposited data

Results flagged for a closer look

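Among the 4 soleus libraries, Dixon's ratio at its 95% critical value singled out soleus 2 for 2 of the 42 collagen genes, and chance alone singles out about 1 gene in 20. Col4a6 was at 0.389 normalized CPM in soleus 2 and between 0.137 and 0.159 in the other soleus libraries, and Col19a1 was at 0.0299 in soleus 2, which is 1 count, and at 0 in the others. Where all other libraries are at 0, any count gives a ratio of 1. The flag of Col19a1 was thus fixed in advance, and the rate of 1 in 20 does not apply to it. Groups of 3 libraries were not tested.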

How the results depend on the processing

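In psoas against EDL, 6 collagen genes were called, and 17 with DESeq2's Wald test, 13 with the run proxy as a covariate, 16 with sex as a covariate, 3 with age as a covariate, and 16 at an adjusted p under 0.05. Over all genes the share called lower was 1.57% in the main fit, 4.39% with DESeq2, and 5.05% at an adjusted p under 0.05. The fit with sex was made without soleus 3, whose sex is not given, and leaving out soleus 3 alone gave 14. Among the EDL and psoas libraries the trimmed ones were those of males. Sex, trimming, and the run proxy therefore split these libraries alike. With 1 library left out the count in psoas against EDL ran from 0 to 14, in soleus against EDL from 2 to 5, and in soleus against psoas from 2 to 10. In soleus against EDL, 3 were called, and 5 with DESeq2, 1 with the run proxy, and 11 at an adjusted p under 0.05. Of all genes, 700 were called lower there with DESeq2 and 970 at 0.05. In soleus against psoas, 8 were called, and 2 with read trimming as a covariate, 3 in a fit of the 2 muscles alone, and 13 at an adjusted p under 0.05 (854 of all genes higher and 709 lower). For the run proxy, sex, age, the replicate block, the fit of 2 muscles, and most fits with 1 library left out, the share of all genes called is not given here. Their counts are therefore no results about the collagens in particular. The cause of the changes in count was not tested. In the other alternatives, beside the replicate block, the counts stayed within 1.5 times. None of the 40 gene and comparison pairs with an adjusted p under 0.05 and a fold over 2 changed direction in any alternative. The replicate numbers do not pair the samples, since only psoas 1 and soleus 1 share both number and animal code, and the correlations of same-numbered deviations ran from -0.234 to 0.503. With the replicate block 3 collagen genes were called in psoas against EDL, 3 in soleus against EDL, and 3 in soleus against psoas.

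As shares of counts without gene length, the fibrillar genes took 52.8% in psoas and 61.6% in soleus, the basement membrane genes 22.9% in psoas, and the other collagens 13.3% in EDL, 21.2% in psoas, and 14.7% in soleus. Some log2 differences of chain ratios near 0 changed sign with 1 library left out. Col1a1/Col1a2 in soleus against psoas ran from -0.25 to 0.11, Col6a1/Col6a2 from -0.12 to 0.03 in psoas against EDL and from -0.10 to 0.05 in soleus against psoas, and Col6a3/Col6a1 in psoas against EDL from -0.04 to 0.32. The 10 collagen genes with a mean under 1 CPM are limited by depth, and fold changes of Col9a1 and Col19a1 rest on 2 counts and 1 count in soleus.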
